A study of Mus musculus with 6 samples.

Results

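The interferon response and the sensing of nucleic acid in the cytosol were represented by 67 genes of the 24421 counted in mouse gastrocnemius and plantaris (GP) muscle. The genes were taken by symbol, without regard to their counts: the families Ifit, Ifi followed by a number, Irf, Oas and Gbp, with Ifih1, STAT genes such as Stat2 and Stat3, Isg15, Mx1, Mx2, Usp18, Rsad2, Bst2, Ddx58, Mb21d1, Tmem173, Mavs, Tbk1, Aim2 and Trex1. Of the 67 genes, 55 had enough counts to be tested, 12 did not pass the filter on low counts, and 3 of these 12 (Oas1d, Oas1e and Oas1f) had no count in any library. The other untested genes were Oas1g, Oas1h, Oas3, Ifit1bl1, Ifit1bl2, Gbp8, Gbp11, Mx1 and Ifi27l2b, with at most 59 counts in a library, so counts over the 55 do not cover the whole set.

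RNA-Seq compared GP muscle of Net39 fl/fl mice without Cre (Ctrl) with that of Net39 fl/fl mice carrying HSA-CreERT2 (cKO), at 3 libraries in each group, 1 mouse per library. Net39, listed here as Ppapdc3, encodes a protein of the nuclear envelope of muscle, and the study deleted it in adults to learn what its loss does to muscle nuclei. Mice of both groups carried the floxed alleles, were given tamoxifen, and were 5 months of age, 3 months after tamoxifen. Per the study's methods, tamoxifen was given to males. By the same methods the floxed allele was made in B6C3F1 zygotes. The founders were mated to another strain, and their floxed offspring were crossed with HSA-CreERT2 mice. The mice may therefore have differed in strain background, which was not tested. HSA-CreERT2 is driven by the human skeletal actin promoter and is active in muscle fibres, leaving out satellite cells and the heart, whereas RNA came from whole muscle with all its cell types.

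Counts of the targeted gene went against the labels. Ppapdc3 was at 7.92, 7.75 and 5.93 CPM (counts scaled by library size) in Ctrl-labelled libraries and at 151, 113 and 138 CPM in cKO-labelled libraries, a log2 fold change of 4.22 (SE 0.17, adjusted p = 0.000161 in edgeR's quasi-likelihood test). The floxed segment is the first exon, and counts per gene do not separate exons. Whether the labels of the groups were exchanged was not tested. Groups are named by their labels throughout, and every direction below is that of the labels and would turn if they had been exchanged. All log2 fold changes are those of cKO-labelled libraries over Ctrl-labelled libraries. Depth was 33860001 to 38201728 counts per library under the label Ctrl and 39191239 to 48839910 under cKO.

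Cells detect nucleic acid in the cytosol with dedicated sensors. DNA is bound by cGAS (Mb21d1), whose product cGAMP activates STING (Tmem173), and RNA is bound by RIG-I (Ddx58) and MDA5 (Ifih1), which signal through MAVS. Both routes lead to the kinase TBK1 and to the transcription factor IRF3, and so to interferon genes. Secreted interferon then acts through its receptors and Janus kinases on STAT factors and IRF9, which bind promoter elements named ISRE and GAS, and switches on genes such as Isg15, Ifit1, Rsad2, Mx2, Oas2 and the guanylate-binding proteins. In skeletal muscle this programme is known from inflammatory myopathies, and ruptured nuclear envelopes are a known source of cytosolic DNA in cultured cells.

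The promoter elements named above are shown as they occur before the starts of some of these genes, since the set was chosen by name and many of its members share them. Promoter sequences (RefSeq, GRCm38.p6, from 250 bases before to 50 bases after each start) were found for 47 of the 67 genes. The core of the ISRE was searched on both strands as GAAA, any 2 bases and GAAA, and the core of the GAS as TTC, any 3 bases and GAA, which reads the same on both strands, and each was counted on its own. Capitals mark 1 match in each line, read 5′ to 3′ on the strand of the gene, and in the line of Isg15 it is the middle one of 3 that overlap, the other two being left in lower case.
Stat2, chr10:128270266-128270295, plus strand, ISRE core: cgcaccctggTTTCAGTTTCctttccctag
Isg15, chr4:156200871-156200900, minus strand, ISRE core: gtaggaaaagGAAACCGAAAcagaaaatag
Ifit1, chr19:34640794-34640823, plus strand, ISRE core: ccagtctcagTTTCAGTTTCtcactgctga
Rsad2, chr12:26456553-26456582, minus strand, ISRE core: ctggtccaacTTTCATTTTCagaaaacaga
Gbp2, chr3:142620594-142620623, plus strand, ISRE core: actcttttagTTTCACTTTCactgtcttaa
Gbp2b, chr3:142594700-142594729, plus strand, ISRE core: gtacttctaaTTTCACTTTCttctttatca
Irf1, chr11:53769914-53769943, plus strand, GAS core: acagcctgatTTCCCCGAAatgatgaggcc
Gbp7, chr3:142530239-142530268, plus strand, GAS core: aagcagaagcTTCTCAGAAagtcagcacaa
The ISRE core was present in 23 of the 47 promoters (48.9%) and in 3.99% of the 27025 genes with a promoter sequence. The GAS core was present in 10 of the 47 (21.3%) and in 9.55% of all. A match of letters is a description of the sequence and not a site shown to be bound in this muscle.

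Of the 55 genes tested, 9 were higher in Ctrl-labelled libraries and none in cKO-labelled libraries at an adjusted p under 0.05 in edgeR's quasi-likelihood test. Among them were Gbp6, Gbp10, Stat2, Stat3, Irf3, Irf5, Oas2 and Ifi27. Among all 14180 genes tested, 11.8% were higher in Ctrl-labelled libraries and 12.6% in cKO-labelled libraries, so the 16.4% of the 55 genes was near the share of all genes in the first direction and the 0% was below it in the other. Leaving out a library changed these counts: 2 calls (Gbp6 and Stat3) were left without Ctrl 1 or without cKO 3, 4 were left without cKO 1, 11 genes were called without Ctrl 2, and 3 genes (Ifit3b, Irf8 and Trex1) were called higher in cKO-labelled libraries without cKO 2 and 1 (Ifit3b) without Ctrl 3. Calls over all genes in the direction of Ctrl-labelled libraries, 1668 with every library, fell to 809 without Ctrl 1, 947 without Ctrl 2, 893 without cKO 1 and 788 without cKO 3. Scaling by total counts instead of TMM gave 23 and 0 calls, and turned the 1668 and 1786 calls over all genes (higher in Ctrl-labelled and in cKO-labelled libraries) into 4074 and 673. At an unadjusted p under 0.05, 20 (36.4%) were higher in Ctrl-labelled libraries and 1, Ifit3b (1.82%), in cKO-labelled libraries, beside 19.6% and 19.2% of all genes. In both directions together these 21 were 38.2% of the set, beside 38.8% of all genes. DESeq2 called 14 and 1 of the 64 genes it fitted, Oas3 among the 14, beside 9.62% and 11.0% of all genes. With a fold change over 2 as a further condition, as the study's methods set it, Gbp6 and Gbp10 remained, against 3.92% of all genes in that direction and 2.13% in the other. That count was 1 without Ctrl 1, Ctrl 3 or cKO 3, and 4 without Ctrl 2.

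The differences were mostly modest and mostly of one sign. The log2 fold change was below 0 for 48 of the 55 genes, where 51.7% of all genes were, and its median was -0.48 beside -0.015 over all genes. Values of the 3 Ctrl-labelled libraries lay above those of all 3 cKO-labelled libraries for 19 of the 55 genes (34.5%, beside 21.9% of all genes). Trex1 was the one gene with the opposite arrangement (1.82%, beside 22.0% of all genes). These genes do not vary independently of each other, and these counts describe the set and are not a test of it.

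**Figure D1:**
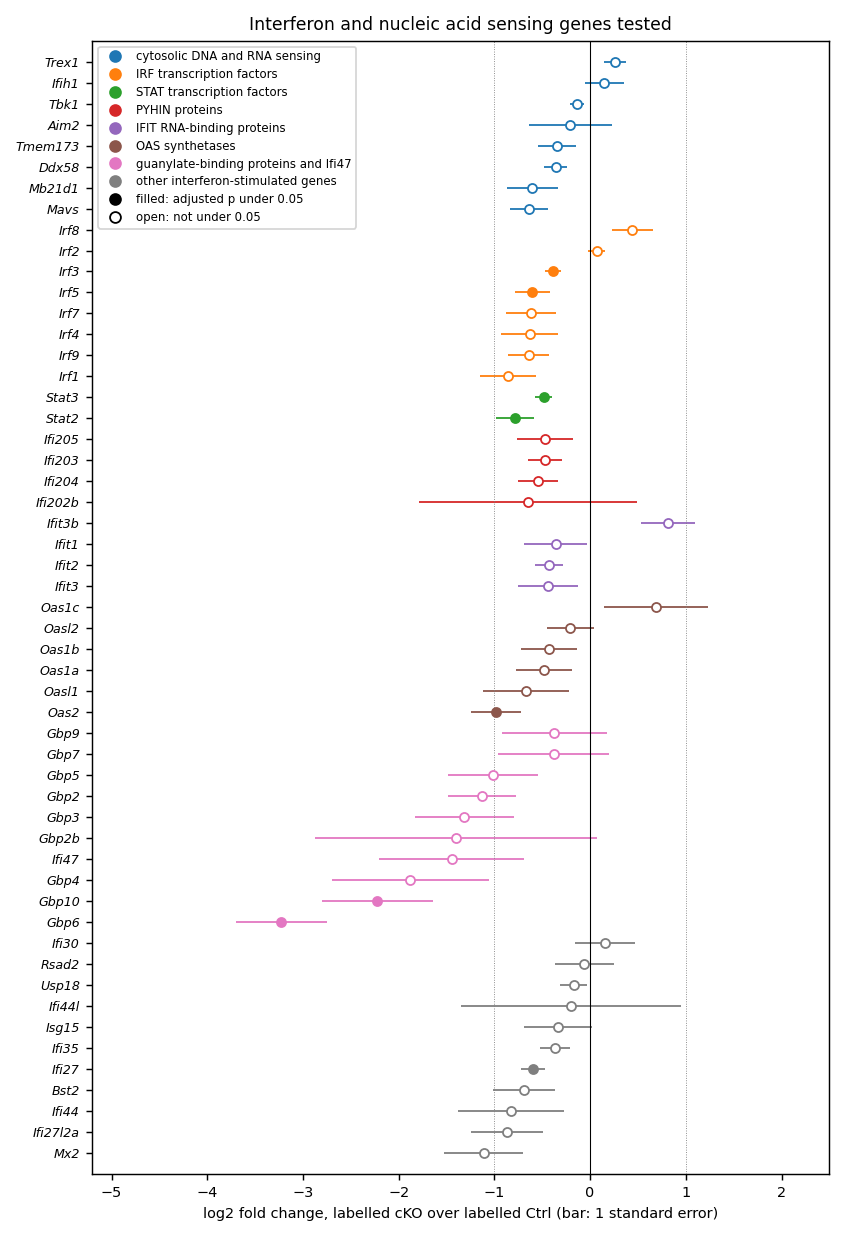
Log2 fold change (x axis, cKO-labelled libraries over Ctrl-labelled libraries) of 53 of the 55 genes tested (y axis), coloured by role, with bars of 1 standard error; filled points have an adjusted p under 0.05. All 8 filled points lie left of 0, Gbp6 at -3.23 lies farthest from 0, and 46 of the 53 points are below 0.

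Levels of macrophage genes moved with the groups. All 15 macrophage and myeloid markers tested had a log2 fold change below 0 and 9 of them were called higher in Ctrl-labelled libraries, among them Lyz2, C1qa, C1qb, C1qc, Csf1r and Cd68. Summed CPM of the 15 was 222 to 254 in Ctrl-labelled libraries and 106 to 147 in cKO-labelled libraries. Summed CPM of the interferon and sensing genes was 741 to 984 and 470 to 542. Of this, Gbp6 and Gbp10 together held 172 to 294 CPM in Ctrl-labelled libraries and 19.7 to 46.6 CPM in cKO-labelled libraries. Markers of T, NK and B cells (13 genes summed, 1.59 to 2.09 and 0.954 to 1.69 CPM) and of neutrophils (7 genes summed, 0.638 to 1.33 and 0.564 to 1.2 CPM) were near the floor of detection, and 10 endothelial markers summed to 544 to 563 and 499 to 522 CPM. Of 10 markers of fibro-adipogenic progenitors, the connective tissue cells of muscle, 5 (50.0%, beside 11.8% of all genes) were called higher in Ctrl-labelled libraries. Mfap5 (-1.49), Ly6a (-1.13) and Col3a1 (-1.06) were past 2-fold on the log2 scale. Smoc2 (0.29), Dcn (0.20), Col1a2 (0.14) and Col1a1 (0.083) were above 0 and not called, and the summed CPM of the 10 overlapped (1497 to 1756 and 1007 to 1908). All 6 Schwann cell markers were below 0 and Pmp22 was called (16.7%, beside 11.8% of all genes), and they summed to 142 to 207 and 81.1 to 131 CPM. Of 10 muscle fibre genes, 5 (50.0%, beside 12.6% of all genes) were called higher in cKO-labelled libraries, among them the fast fibre genes Myh4 (1.46) and Actn3 (1.58). In Ctrl-labelled libraries 2 were called higher, Myh1 and Myh2 (20.0%, beside 11.8% of all genes). Markers of slow muscle fibres summed to 9353 to 15850 CPM in Ctrl-labelled libraries and to 588 to 4145 CPM in cKO-labelled libraries, so the groups also differed in fibre genes. In whole muscle, fewer cells of a type and less RNA per cell cannot be told apart, and the part of these cells in the differences below was not tested.

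The guanylate-binding proteins, interferon-induced GTPases that act on the vacuoles of intracellular pathogens, held the largest differences. Gbp6 was at 142, 113 and 43.8 CPM in Ctrl-labelled libraries and at 13.3, 12.4 and 6.41 CPM in cKO-labelled libraries. The groups did not overlap: the lowest library labelled Ctrl, that of mouse 3, was still over the highest labelled cKO. Mean levels were 99.7 ± 50.6 and 10.7 ± 3.73 CPM (SD, n = 3 each). The log2 fold change was -3.23 (SE 0.47, adjusted p = 0.00554, edgeR), a 9.36-fold difference, and the adjusted p stayed between 0.00237 and 0.0247 when any one library was left out.

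Gbp10 was at 151, 84.1 and 128 CPM in Ctrl-labelled libraries and at 6.46, 34.2 and 37.1 CPM in cKO-labelled libraries. The groups did not overlap, but the library of mouse 1 labelled cKO lay far below the other two of its group. The log2 fold change was -2.22 (SE 0.58, adjusted p = 0.0324, edgeR). The call ended when any of 4 libraries was left out (Ctrl 1, 2 or 3, or cKO 3), with adjusted p up to 0.0956, and in the robust fit (adjusted p = 0.0522), and the log2 fold change between -2.59 and -1.78 over all 6 omissions.

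Gbp6 and Gbp10 lie next to each other on chromosome 5, on the minus strand (GENCODE M21, GRCm38; chr5:105270702-105293698 and chr5:105215699-105239533), and their counts are not independent measurements. Their coding sequences, both of 1836 bases, were identical at 98.4% of positions, with an identical run of 421 bases. Of the 75-base words in the annotated transcripts, the read length of the study, 42.7% of those of Gbp6 and 67.2% of those of Gbp10 also occur in another gene elsewhere, mainly each other. Exons of Gm43302, a gene model that overlaps both, cover 29.0% of the exon bases of Gbp6 and 46.3% of those of Gbp10. The stretch of 60 coding bases within 1 exon where the pair differs most is printed below, with the 9 differing bases in capitals, to show how little sequence separates their reads (exon 10 of each, coding bases 1567 to 1626, minus strand).
Gbp6, chr5:105274211-105274270: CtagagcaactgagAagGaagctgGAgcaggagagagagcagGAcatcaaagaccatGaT
Gbp10, chr5:105218411-105218470: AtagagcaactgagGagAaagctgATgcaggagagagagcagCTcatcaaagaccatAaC
Summed into 1 row before the fit, an alternative added after the data were seen, the pair was at 294, 197 and 172 CPM in Ctrl-labelled libraries and at 19.7, 46.6 and 43.5 CPM in cKO-labelled libraries. The sum had a log2 fold change of -2.59 (SE 0.35, adjusted p = 0.00455, edgeR). The sum does not address reads that were dropped or given to Gm43302.

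The other guanylate-binding proteins, taken for description after their values were seen, followed the library of mouse 3 labelled Ctrl. Gbp4 was at 11.6, 7.58 and 70.2 CPM in Ctrl-labelled libraries and at 5.84, 6.52 and 11.9 CPM in cKO-labelled libraries. Gbp2 was at 9.04, 7.67 and 20.4 CPM and at 5.36, 5.35 and 6.18 CPM, without overlap. Gbp3 was at 6.61, 4.44 and 19.0 CPM and at 3.73, 3.27 and 5.04 CPM, with overlap. In each of these genes the library labelled Ctrl 3 stood over the other two of its group, and the same was so for 8 of the 10 tested genes of the family with Ifi47, an interferon-inducible GTPase. None of the 3 passed the test: log2 fold changes were -1.88 (SE 0.82, adjusted p = 0.137) for Gbp4, -1.13 (SE 0.36, adjusted p = 0.0579) for Gbp2 and -1.31 (SE 0.52, adjusted p = 0.108) for Gbp3 in edgeR. Without the library labelled Ctrl 3 the value of Gbp4 was -0.24 (adjusted p = 0.640), that of Gbp3 was -0.46 (adjusted p = 0.241) and that of Gbp2 was -0.57 (adjusted p = 0.0330). Gbp2 was also called without Ctrl 2 and with DESeq2. Gbp7, Gbp9 and Gbp2b had log2 fold changes of -0.38, -0.37 and -1.40 with all libraries and of 0.60, 0.59 and 1.05 without Ctrl 3, none called in either fit.

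The family lies in 2 clusters. The 5 genes on chromosome 3 (Gbp2, Gbp2b, Gbp3, Gbp5 and Gbp7, chr3:142493978-142638008) were all highest in the library labelled Ctrl 3, as were 3 of the 6 on chromosome 5 (Gbp4, Gbp8 and Gbp9, chr5:105014150-105346472). Gbp6 and Gbp10, in the same cluster on chromosome 5, were instead highest in Ctrl 1. Summed over the 11 genes, CPM was 353, 239 and 401 in Ctrl-labelled libraries and 66.5, 92.8 and 119 in cKO-labelled libraries, and Gbp6 and Gbp10 made up most of the sum in Ctrl 1 and Ctrl 2. Gbp8 and Gbp11 were not tested, and the highest count of the former was 59, in the library labelled Ctrl 3.

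**Figure D2:**
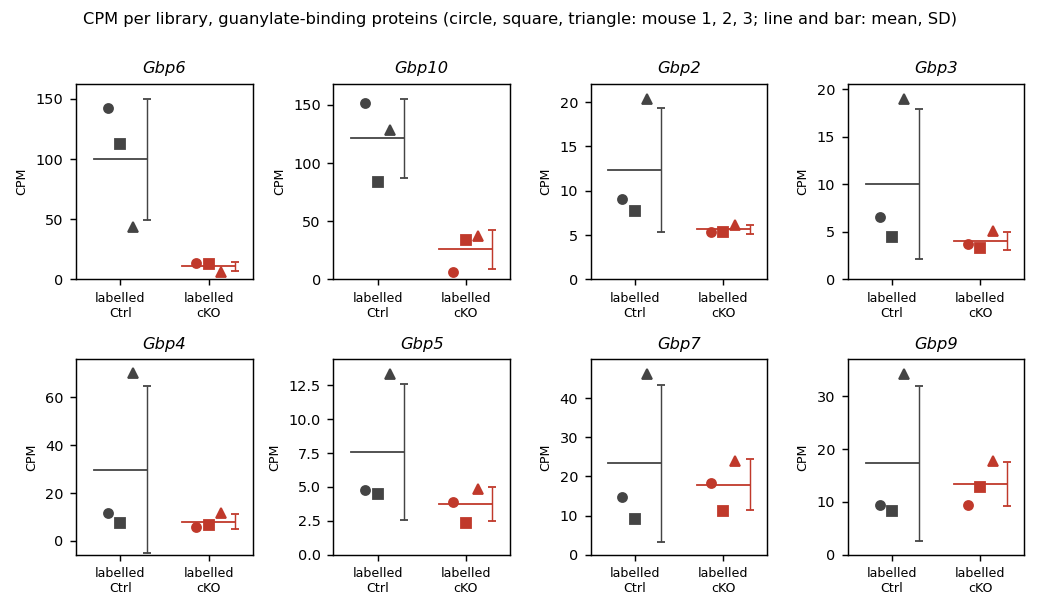
CPM (y axis) of 8 guanylate-binding proteins in the 3 Ctrl-labelled libraries (grey) and the 3 labelled cKO (red); circle, square and triangle are mouse 1, 2 and 3, the line is the mean and the bar 1 SD. Gbp6 and Gbp10 separate the groups, from 43.8 CPM up against 13.3 CPM down for Gbp6, whereas in the other 6 panels the triangle of Ctrl 3 stands above the rest, at 70.2 CPM for Gbp4.

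Stat2 and Stat3, which carry the signal from interferon and cytokine receptors to promoters, were called higher in Ctrl-labelled libraries, by less than 2-fold. Stat3, which mainly serves cytokines such as IL-6, was at 87.5, 91.4 and 105 CPM in Ctrl-labelled libraries and at 69.9, 68.9 and 64.2 CPM in cKO-labelled libraries. The groups did not overlap, and the log2 fold change was -0.48 (SE 0.09, adjusted p = 0.0111, edgeR). Stat2, which serves the response to type I interferon, was at 13.7, 12.6 and 21.2 CPM and at 9.43, 8.75 and 9.34 CPM. Its cKO-labelled libraries were close to each other and all below the other group, with a log2 fold change of -0.79 (SE 0.20, adjusted p = 0.0279). Without Ctrl 3, Stat2 was at -0.52 (adjusted p = 0.0172). Stat3 and Gbp6 were the genes of the set whose call held in all 6 fits with a library left out, whereas that of Stat2 was lost in 4.

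Of the 9 IRF transcription factors tested, 2 were called, both higher in Ctrl-labelled libraries (22.2%, beside 11.8% of all genes). Irf3, the factor activated by TBK1 downstream of the sensors, was at 29.4, 28.4 and 25.5 CPM in Ctrl-labelled libraries and at 21.5, 21.9 and 20.2 CPM in cKO-labelled libraries. The groups were apart with little spread in either, and the log2 fold change was -0.39 (SE 0.08, adjusted p = 0.0179, edgeR). Irf5, which acts in myeloid cells below Toll-like receptors, was at 7.53, 8.06 and 8.86 CPM and at 3.98, 5.79 and 6.29 CPM. It also did not overlap, but its adjusted p of 0.0495 (log2 fold change -0.60, SE 0.18, edgeR) was the closest to the threshold, and no fit with a library left out kept the call, nor did scaling by DESeq2's size factors (adjusted p = 0.0505) or testing without a filter (adjusted p = 0.0532). Irf3 lost its call in 4 of these 6 fits.

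Irf9, Irf7 and Irf1, which interferon itself induces, did not pass the test. Irf9, which joins STAT2 on the ISRE, was at 12.0, 8.78 and 15.5 CPM in Ctrl-labelled libraries and at 6.66, 7.66 and 8.79 CPM in cKO-labelled libraries (log2 fold change -0.64, SE 0.21, adjusted p = 0.0656). Irf7, the amplifier of type I interferon genes, was at 4.93, 3.04 and 6.18 CPM and at 2.94, 2.81 and 3.45 CPM (log2 fold change -0.62, SE 0.26, adjusted p = 0.127). Both overlapped between groups through the library labelled Ctrl 2. Irf1, a main target of interferon gamma whose GAS is printed above, was at 11.1, 12.1 and 24 CPM and at 7.73, 9.17 and 9.07 CPM (log2 fold change -0.86, SE 0.29, adjusted p = 0.0705). Irf1 did not overlap, and the library labelled Ctrl 3 was at about the sum of the other two. DESeq2 called Irf9 (adjusted p = 0.0285) and Irf1 (adjusted p = 0.0168), and edgeR without the library labelled Ctrl 2 called Irf9 (-0.83, adjusted p = 0.0343) and Irf7 (-0.85, adjusted p = 0.0370). Without Ctrl 3, Irf1 was at -0.42 (adjusted p = 0.0532), Irf9 at -0.42 and Irf7 at -0.37. Irf4 was at -0.63 on the log2 scale, and the positive values were those of Irf2 (0.069) and Irf8 (0.44, adjusted p = 0.170), a factor of myeloid cells.

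None of the 8 sensing genes was called in either direction at an adjusted p under 0.05 in edgeR's test. Mavs and Ddx58 had an unadjusted p under 0.05, and DESeq2 called 1 of the 8, Mavs. The median log2 fold change was -0.28, and 6 of the 8 were below 0. Standard errors ranged from 0.08 (Tbk1) to 0.43 (Aim2). Mavs, at -0.64 with an SE of 0.20, did not pass in edgeR, so differences well over these errors could also not be told from 0.

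On the DNA side, Mb21d1 was barely expressed: 28, 31 and 39 counts in Ctrl-labelled libraries and 20, 23 and 22 in cKO-labelled libraries, or 0.715, 0.748 and 1.07 CPM and 0.564, 0.597 and 0.500 CPM. The groups did not overlap, yet the log2 fold change of -0.60 (SE 0.26, adjusted p = 0.136, edgeR) did not pass. Tmem173, the adaptor that cGAMP activates, was at 3.29, 3.09 and 4.32 CPM and at 2.34, 3.25 and 2.79 CPM, with overlap and a log2 fold change of -0.35 (SE 0.20, adjusted p = 0.235) that was -0.19 without the library labelled Ctrl 3. Tbk1 was at 21.5, 20.2 and 20.1 CPM and at 18.3, 18.6 and 19.2 CPM. The groups of Tbk1 did not overlap, but they differed by 1.1-fold and the log2 fold change of -0.14 (SE 0.08, adjusted p = 0.222) did not pass. Aim2, the DNA sensor of the inflammasome, was at 0.766, 1.11 and 1.15 CPM and at 0.847, 0.39 and 1.36 CPM (log2 fold change -0.21, SE 0.43, adjusted p = 0.758).

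Trex1, the exonuclease that removes cytosolic DNA, was the one gene of the set whose cKO-labelled libraries all lay above Ctrl-labelled libraries. It was at 12.8, 12.8 and 11.9 CPM in Ctrl-labelled libraries and at 16.7, 12.9 and 15.4 CPM in cKO-labelled libraries, so that the lowest cKO library was just over the highest labelled Ctrl. The log2 fold change was 0.26 (SE 0.11, adjusted p = 0.132, edgeR), and 0.34 (adjusted p = 0.0437) without the library labelled cKO 2. Scaling by total counts brought it to 0.000805 (adjusted p = 0.995), and in TPM the groups of Trex1 overlapped, so the arrangement holds for CPM with TMM scaling. All exon bases of Trex1 (100%) overlap exons of Atrip, so its reads cannot be told from those of that gene by position.

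On the RNA side, Mavs was at 130, 96.8 and 71.8 CPM in Ctrl-labelled libraries and at 69.0, 61.7 and 61.9 CPM in cKO-labelled libraries. cKO-labelled libraries were alike, Ctrl-labelled libraries spread from the edge of that range upwards, and the groups did not overlap. The log2 fold change was -0.64 (SE 0.20, adjusted p = 0.0562, edgeR), and DESeq2 gave -0.62 (adjusted p = 0.0150). In edgeR, Mavs was called at -0.82 (adjusted p = 0.0118) without the library labelled Ctrl 3 and was at -0.39 (adjusted p = 0.124) without Ctrl 1. Ddx58 was at 8.66, 7.22 and 8.86 CPM and at 6.01, 6.75 and 6.5 CPM, also without overlap (log2 fold change -0.36, SE 0.12, adjusted p = 0.0700). Ifih1 was at 5.62, 5.55 and 7.60 CPM and at 5.59, 6.52 and 8.64 CPM (log2 fold change 0.15, SE 0.20, adjusted p = 0.625), and its groups overlapped.

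**Figure D3:**
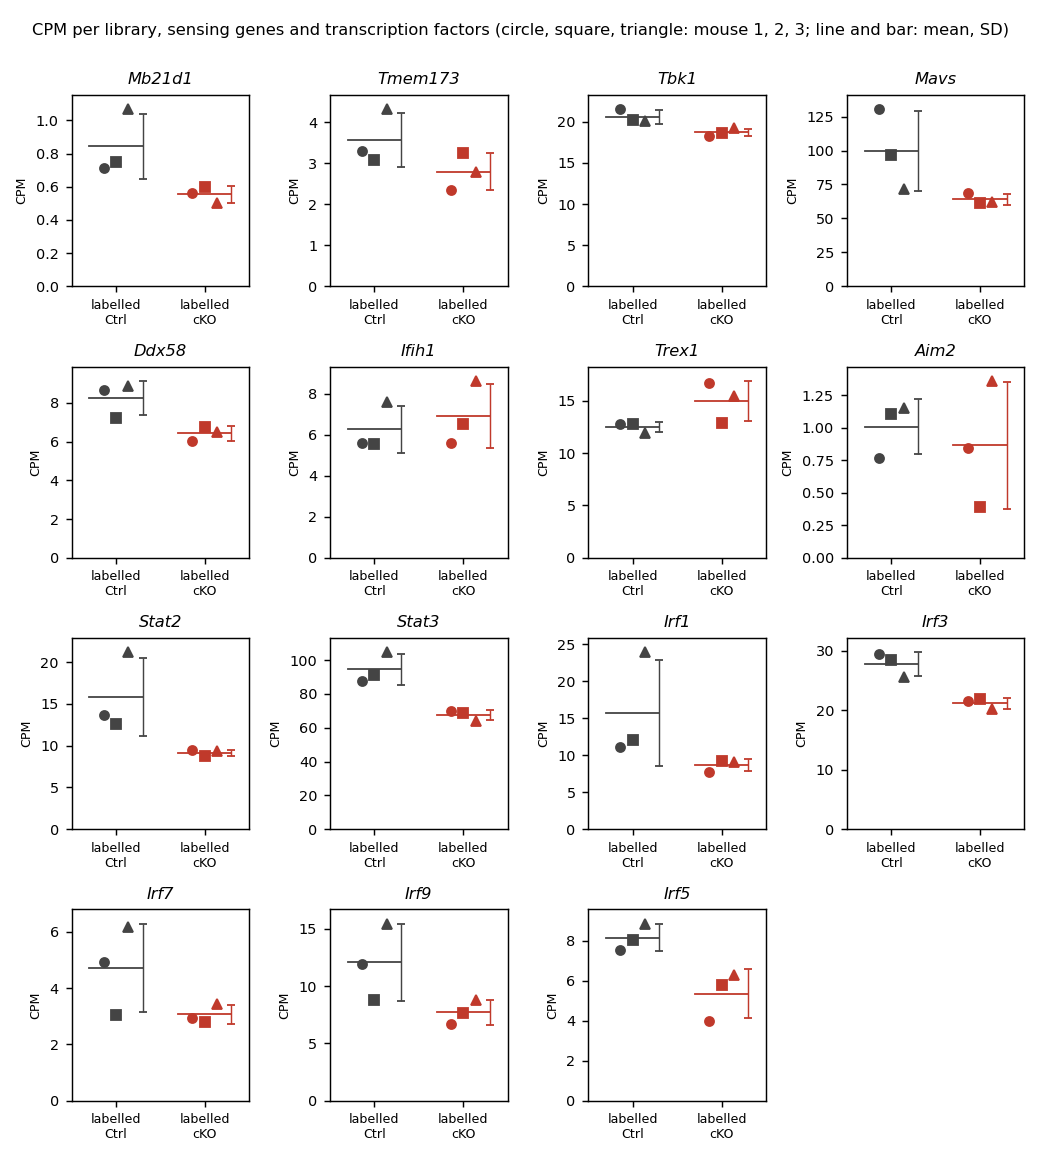
CPM (y axis) of the 8 sensing genes and of 7 STAT and IRF genes in the 3 Ctrl-labelled libraries (grey) and the 3 labelled cKO (red); circle, square and triangle are mouse 1, 2 and 3, the line is the mean and the bar 1 SD. Stat3 and Irf3 show tight, separate groups (87.5 CPM up against 69.9 CPM down for Stat3), Trex1 is the panel with all red points above the grey ones, and Ifih1 and Aim2 overlap.

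Levels of these genes can be compared with each other only per length, as TPM (counts per base of exon, scaled by library) on the exon lengths of GENCODE M21. By the mean over 6 libraries, Mavs was first of the 67, at mean TPM 106 in Ctrl-labelled libraries and 57.2 in cKO-labelled libraries, followed by Gbp10 (112 and 20.4) and Ifi27 (84.3 and 47.2). Among the sensing genes, the order in TPM went on with Trex1 (38.8 and 38.8), Tbk1 (18.7 and 14.3), Tmem173 (4.64 and 3.07), Ddx58 (4.17 and 2.73), Ifih1 (2.73 and 2.53), Aim2 (1.02 and 0.727) and Mb21d1 (0.727 and 0.402). The TPM of Trex1 includes any reads of Atrip, which overlaps it. The order depended on the label: in cKO-labelled libraries Gbp10 lay below Mavs and Ifi27 in TPM without overlap, whereas in Ctrl-labelled libraries Mavs overlapped with both. In Ctrl-labelled libraries Ifih1 lay below Tmem173 and Ddx58 without overlap, whereas in cKO-labelled libraries these 3 overlapped. Tmem173 and Ddx58 overlapped in both groups, as did Aim2 and Mb21d1. In all, 17 of the 67 genes had a mean of over 10 TPM and 20 one of under 1 TPM.

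Of 11 interferon-stimulated genes tested outside the GBP, OAS, IFIT, PYHIN, IRF and STAT families, 10 had a log2 fold change below 0, the median was -0.37, and 1 was called (9.09%, beside 11.8% of all genes). Isg15, Rsad2 and Usp18 did not pass the test. Isg15, a ubiquitin-like modifier, was at 1.79, 0.724 and 1.34 CPM in Ctrl-labelled libraries and at 0.875, 0.909 and 1.25 CPM in cKO-labelled libraries (log2 fold change -0.34, SE 0.35, adjusted p = 0.523, edgeR). The value of Isg15 was -0.016 without the library labelled Ctrl 1 and -0.62 without Ctrl 2. Rsad2, the antiviral enzyme viperin, was at 3.52, 6.59 and 6.78 CPM and at 4.69, 4.13 and 7.34 CPM (log2 fold change -0.061, SE 0.31, adjusted p = 0.904). Isg15 and Rsad2 overlapped between groups. Usp18, which removes ISG15 and damps the receptor, was at 2.78, 2.75 and 2.76 CPM and at 2.48, 2.57 and 2.32 CPM. Its groups did not overlap and each was tight, but the log2 fold change of -0.17 (SE 0.14, adjusted p = 0.413) did not pass.

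Ifi27, a small interferon-induced membrane protein, was the one called gene of the 11 tested in this group. It was at 35.5, 34.6 and 34.2 CPM in Ctrl-labelled libraries and at 19.8, 27.6 and 21.5 CPM in cKO-labelled libraries, with no overlap and the tighter values in the former. The log2 fold change was -0.60 (SE 0.13, adjusted p = 0.0167, edgeR), and leaving out a library ended the call in 3 of 6 fits. Bst2, or tetherin, which holds virions at the membrane, was at 10.2, 6.42 and 17.0 CPM and at 6.10, 7.32 and 7.32 CPM (log2 fold change -0.69, SE 0.32, adjusted p = 0.157). Mx2, a dynamin-like antiviral GTPase, was at 0.919, 0.627 and 1.12 CPM and at 0.339, 0.234 and 0.636 CPM (log2 fold change -1.11, SE 0.41, adjusted p = 0.0920). Bst2 and Mx2 overlapped between groups, each through the library labelled Ctrl 2. Without that library Bst2 was called (-0.97, adjusted p = 0.0451), and without Ctrl 3 it was at -0.26 (adjusted p = 0.415). Mx1 was not tested, at 0.460, 0.193 and 0.410 CPM and at 0.226, 0.234 and 0.182 CPM.

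Among the OAS synthetases, which make a messenger that activates an RNase when double-stranded RNA is present, Oas2 was called. It was at 7.15, 3.48 and 5.22 CPM in Ctrl-labelled libraries and at 2.71, 2.57 and 2.73 CPM in cKO-labelled libraries. The cKO-labelled libraries were nearly equal and all below the other group, with a log2 fold change of -0.98 (SE 0.26, adjusted p = 0.0329, edgeR), and leaving out a library ended it in 5 of 6 fits. Oas3, its neighbour on chromosome 5, did not pass the filter on low counts, with 16, 6 and 15 counts in Ctrl-labelled libraries and 1, 1 and 3 in cKO-labelled libraries. After scaling, the ratio of Oas3 was 7.45 with a 95% counting interval of 2.92 to 24.3, which covers counting error alone. Fits that kept Oas3 gave it as called and past 2-fold without a filter (-2.82, SE 0.67, adjusted p = 0.0235), with DESeq2 (-2.92, adjusted p = 0.0166), without Ctrl 2 (adjusted p = 0.0215) and without cKO 2 (adjusted p = 0.0498), and as not called without cKO 1 (adjusted p = 0.0726) or cKO 3 (adjusted p = 0.0502). The other 5 OAS genes tested were not called (adjusted p = 0.263 to 0.575), and Oas1c was the one with a positive value, at 0.69 (SE 0.54). Oas1a shares 47.6% of its 75-base words with another gene, Oas1g.

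The 4 IFIT genes tested, whose proteins bind foreign RNA ends, were not called in edgeR. Ifit2 and Ifit3b had an unadjusted p under 0.05 in opposite directions, and DESeq2 called Ifit3b. Ifit3 and Ifit3b were taken for description after their values were seen. Ifit3 was at 4.39, 2.27 and 3.69 CPM in Ctrl-labelled libraries and at 2.37, 1.84 and 3.39 CPM in cKO-labelled libraries (log2 fold change -0.44, SE 0.31, adjusted p = 0.332), whereas Ifit3b was at 1.51, 1.88 and 2.60 CPM and at 4.04, 2.39 and 4.09 CPM (log2 fold change 0.81, SE 0.29, adjusted p = 0.0783). The pair shares 41.1% of the 75-base words of Ifit3 and 35.7% of those of Ifit3b, and summed into 1 row it had a log2 fold change of 0.15 (SE 0.25, adjusted p = 0.685, edgeR). Of the 4 PYHIN proteins, nucleic acid binders encoded on chromosome 1, none was called in edgeR or DESeq2, Ifi203 and Ifi204 had an unadjusted p under 0.05, edgeR called Ifi204 without Ctrl 2, and the log2 fold changes ran from -0.65 to -0.47.

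Spread between mice of 1 group was wide in this set. The highest library was over 3 times the lowest for 12 of the 55 genes within Ctrl-labelled libraries, where 2.71% of all genes were, and for 5 within cKO-labelled libraries, where 3.84% were. The library labelled Ctrl 3 held the highest value of all 6 for 27 of the 55 genes, and Ctrl 1 for 17. Over all genes tested, these libraries were highest for 19.3% and 18.5%.

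**Figure D4:**
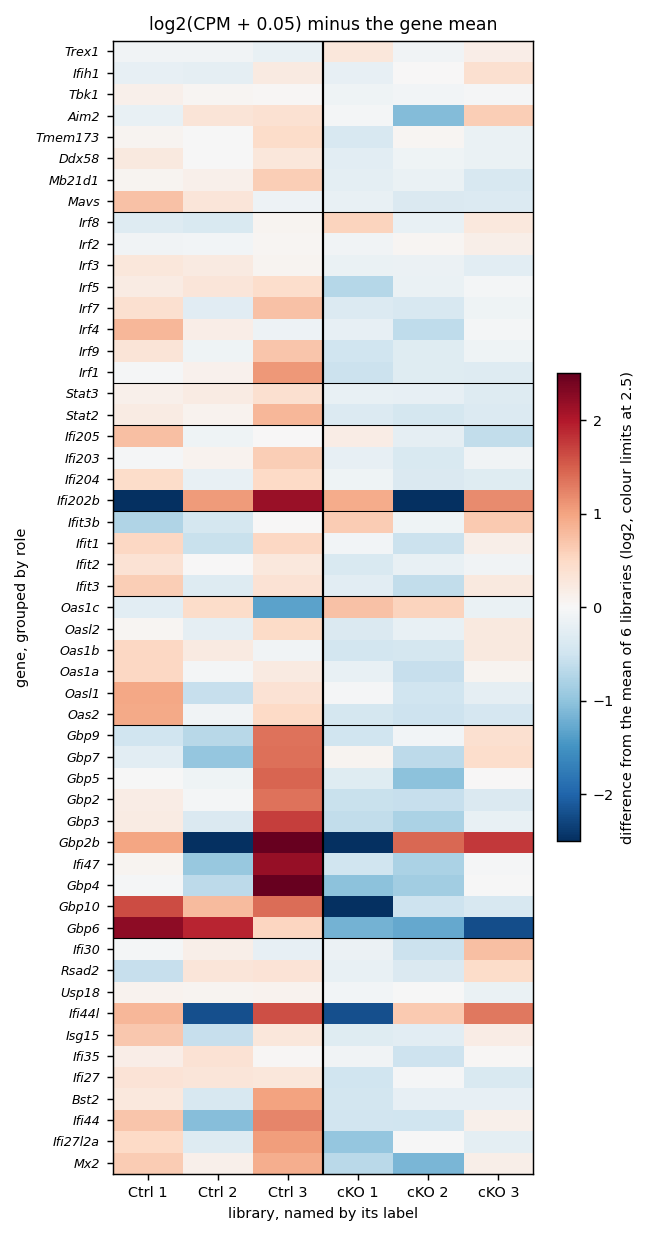
Log2(CPM + 0.05) minus the mean of the gene over 6 libraries (colour, limits at 2.5) for 53 of the 55 genes tested (y axis, grouped by role) in each library (x axis); the vertical line separates labels. Red is most common in Ctrl 1 and Ctrl 3, which hold the highest value for 17 and 27 of the 55 genes, and the dark blue cells in Ctrl 2 and cKO 1 are Gbp2b and Ifi44l.

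Gbp2b, Ifi44l and Ifi202b were near 0 in 1 library of each group and present in the others, and were taken for description after their values were seen. Gbp2b had 127, 2 and 867 counts in Ctrl-labelled libraries and 2, 170 and 246 in cKO-labelled libraries. Ifi44l had 14, 0 and 24 counts and 0, 12 and 23. Both were near 0 in the same pair of libraries, Ctrl 2 and cKO 1, and both lie on chromosome 3 (chr3:142594847-142619179 and chr3:151758737-151762892). Ifi202b, on chromosome 1 (chr1:173962568-173982744), had 1, 40 and 77 counts and 31, 1 and 46, so the libraries near 0 were Ctrl 1 and cKO 2. Over all 9 pairs of 1 library from each group, 4 of the 24421 genes had at most 2 counts in both libraries of the pair and at least 10 in the other 4 libraries, and 3 of the 4 were these. The differences run across the labels, and the log2 fold changes had wide errors: -1.40 (SE 1.48) for Gbp2b, -0.20 (SE 1.15) for Ifi44l and -0.65 (SE 1.14) for Ifi202b, with adjusted p of 0.521, 0.915 and 0.712 in edgeR. Ifi44, next to Ifi44l, was lowest in Ctrl 2 but had counts in every library.

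**Figure D5:**
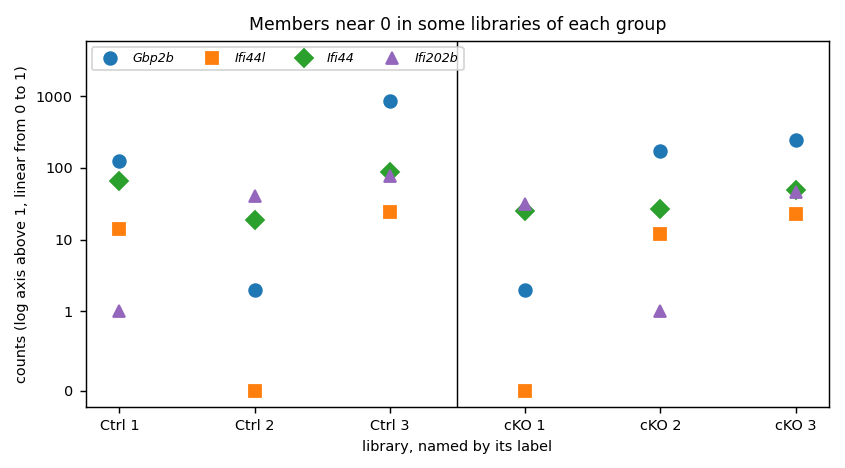
Counts (y axis, log above 1 and linear from 0 to 1) of Gbp2b, Ifi44l, Ifi44 and Ifi202b in each library (x axis); the vertical line separates labels. Gbp2b and Ifi44l drop to 2 and 0 counts in Ctrl 2 and cKO 1, and Ifi202b to 1 count in Ctrl 1 and cKO 2.

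Genes of the same pathway outside the set were described from lists of 159 genes, of which 127 were tested, 18 were called higher in Ctrl-labelled libraries and 5 in cKO-labelled libraries. These shares were 14.2% and 3.94%, beside 11.8% and 12.6% of all genes, so the first was near that of all genes. The 18 became 7 without Ctrl 1 or cKO 1 and 11 without cKO 3, and the 5 became 3 without Ctrl 2, cKO 1 or cKO 3. Of 20 interferon ligand genes in the tables, 2 had any count and the highest count in a library was 3, so a difference in ligand mRNA was not detectable at this depth. Among receptors and kinases, Ifngr2, a chain of the interferon gamma receptor, was at 56.3, 57.6 and 62.7 CPM in Ctrl-labelled libraries and at 76.6, 79.9 and 78.1 CPM in cKO-labelled libraries. The groups were apart and each was tight, with a log2 fold change of 0.41 (SE 0.07, adjusted p = 0.00918, edgeR). Tyk2, a kinase of the type I receptor, went the other way, at 23.6, 23.8 and 23.6 CPM and at 17.3, 16.9 and 19.4 CPM (log2 fold change -0.40, SE 0.08, adjusted p = 0.0153). The remaining chains and kinases did not pass: Ifnar1 at -0.21 (adjusted p = 0.120), Ifnar2 at -0.31 (adjusted p = 0.0502), Ifngr1 at -0.18 (adjusted p = 0.407), Il10rb at -0.34 (adjusted p = 0.0731), Jak1 at 0.41 (adjusted p = 0.120) and Jak2 at 0.64 (adjusted p = 0.0725).

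Of the 127 pathway genes tested, 5 were called past 2-fold, all higher in Ctrl-labelled libraries, which was 3.94% beside the 3.92% of all genes in that direction. Nlrc3, which restrains STING, was at 16.5, 20.1 and 19.8 CPM in Ctrl-labelled libraries and at 3.44, 2.78 and 1.52 CPM in cKO-labelled libraries. The groups lay far apart, with a log2 fold change of -2.87 (SE 0.27, adjusted p = 0.00170, edgeR). Cxcl10, a chemokine induced by interferon gamma, was at 1.86, 0.70 and 2.38 CPM and at 0.169, 0.364 and 0.455 CPM (log2 fold change -2.29, SE 0.53, adjusted p = 0.0229). Pyhin1 was lower still, at 0.741, 0.362 and 0.711 CPM and at 0.0847, 0.260 and 0.0909 CPM (log2 fold change -2.04, SE 0.51, adjusted p = 0.0291). Ly6e, an interferon-induced surface protein, was at 76.2, 67.6 and 63.6 CPM and at 34, 22.7 and 43.2 CPM (log2 fold change -1.05, SE 0.22, adjusted p = 0.0151). Tlr9, the endosomal DNA receptor, had a log2 fold change of -1.45 (SE 0.40, adjusted p = 0.0391) at under 1 CPM in every library. None of these 5 overlapped between groups, an arrangement that 21.9% of all genes had in that direction. The 5 were named for being called past 2-fold, so their lack of overlap adds nothing to the call. Of 68 further interferon-stimulated genes tested, 9 were called, all higher in Ctrl-labelled libraries (13.2%, near the 11.8% of all genes), and their median log2 fold change was -0.44, beside -0.48 for the set described here and -0.015 for all genes.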

How the data were processed

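RNA-Seq libraries were made with the KAPA mRNA Hyperprep kit from total RNA of GP muscle. The authors deposited 1 table of raw counts per library, whole numbers per gene without normalization. Per the labels and the study's methods, reads of 75 bases were checked with FastQC 0.11.8, trimmed with Trimmomatic 0.39, aligned to mm10 with HISAT2 2.1.0 and counted with featureCounts 1.6.2. The annotation and the strand setting are not given in the sources used here. Reads of overlapping or near-identical genes may therefore have been dropped or divided, which touches Gbp6, Gbp10, Ifit3, Ifit3b, Oas1a and Trex1.

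Groups came from the sample labels, and replicates are separate mice. Of 24421 genes, 18918 had a count. The test was the quasi-likelihood one of edgeR 4.0.16 under R 4.3.3 (TMM scaling, filterByExpr, glmQLFit and glmQLFTest, limma 3.58.1) over all 14180 genes that passed the filter, with Benjamini-Hochberg adjustment over all of them; the study tested with DESeq, for which DESeq2 1.42.0 stands here as an alternative. Scaling factors were 1.08 to 1.11 in Ctrl-labelled libraries and 0.865 to 0.983 in cKO-labelled libraries. Standard errors were derived from the F statistic. CPM used the scaled library size. TPM, positions, exon overlap and shared 75-base words came from GENCODE M21, in which all 67 genes were found. The fit was also run on simulated counts, and the outcome is not reported here. With 3 mice a group, an exact permutation test cannot go below 0.1, and none was used. No 2 libraries repeated each other: counts of replicates differed by 29.5 to 101 times what counting error gives (chi-square over its degrees of freedom).

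The genes described and the pathway and marker lists were chosen with earlier results of these data known. Named with values in each library were all genes with an adjusted p under 0.05, the 8 sensing genes and a fixed list of STAT, IRF and interferon-stimulated genes; pathway genes were named where past 2-fold, with the receptors and kinases. Genes named outside this rule are stated as such, and some genes of the set are counted in its totals but not reported here by name. Alternatives were other scalings, other filters, DESeq2, a robust fit, a replicate block, leaving out each library and, added after the data were seen, summed counts of near-identical genes.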

Additional observations from a re-analysis of the deposited data

How the results depend on the processing

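The 9 genes of the set called higher in Ctrl-labelled libraries became 23 with scaling by total counts and 14 with DESeq2, which kept all 9, and 2 to 11 when 1 library was left out (2 without Ctrl 1 or cKO 3, 4 without cKO 1, and 8 without Ctrl 3). Those past 2-fold, 2 in the report, were 8 with total counts, 4 with DESeq2, 1 with the robust fit and 1 to 4 with a library left out. Calls higher in cKO-labelled libraries, 0 in the report, were 1 with DESeq2 (Ifit3b) and 0 to 3 with a library left out (Ifit3b without Ctrl 3, and Ifit3b, Irf8 and Trex1 without cKO 2), of which 0 to 1 were past 2-fold. Scaling by total counts moved the median of all genes from -0.015 to -0.27 on the log2 scale and turned 1668 and 1786 calls higher in Ctrl-labelled and cKO-labelled libraries into 4074 and 673. Under it the median of the set was -0.75, but its distance to the median of all genes was -0.48, as against -0.47 in the report; with a library left out the median was -0.66 to -0.35. Pathway genes called higher in Ctrl-labelled libraries, 18 in the report, were 58 with total counts and 7 to 15 with a library left out, and those higher in cKO, 5, were 2 and 3 to 6.

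Of the 55 genes, Ifih1 (-0.10), Irf2 (-0.18) and Ifi30 (-0.11) changed sign with total counts. With a library left out 11 did: Ifih1 (-0.060 to 0.31), Aim2 (-0.72 to 0.13), Rsad2 (-0.37 to 0.095), Ifi202b (-1.22 to 0.38), Ifi44l (-1.05 to 0.71), Irf2, Ifi30, Oasl2 and, as given above, Gbp7, Gbp9 and Gbp2b. None of these was called with the other sign. Leaving out a library moved the log2 fold change by over 1.5 times for 41 of the 55 genes. The other filters left the counts within 1.5 times.

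Mice of the 2 groups share only a number: the correlations of deviations between same-numbered libraries were 0.08, -0.21 and -0.002. With the mouse number as a replicate block, 5 genes of the set were called higher in Ctrl-labelled libraries, and 1 past 2-fold (Gbp6), while calls over all genes fell to 972 and 927 (6.86% and 6.54%). The causes of these shifts were not tested. Depth limits the interferon ligands and the 12 genes left out by the filter. Of these 12, 9 were in the fit without a filter, and Oas3 was called there.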

Other observations

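The set was also divided by its promoter sequence. Among the 23 genes with an ISRE core, 19 were tested, 1 was called (Stat2), 15 had a log2 fold change below 0, and the median was -0.44. Among the 24 with a promoter sequence but without that core, 22 were tested, 3 were called (Stat3, Irf3 and Irf5), 19 were below 0, and the median was -0.54. The 10 genes with a GAS core were all tested and none was called in edgeR, with a median of -0.46. All calls in this split were higher in Ctrl-labelled libraries. Among all genes tested, 11.8% were called in that direction and 51.7% had a log2 fold change below 0. The 20 genes with no promoter sequence in the table include Gbp6, Gbp10, Oas2 and Ifi27, so the split leaves out several of the called genes and says little about them.

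Genes of nucleic acid breakdown and of the brakes on interferon signalling were described from further lists. Of 12 nuclease and processing genes tested, Adar and Dnase2a were called higher in Ctrl-labelled libraries and Dnase1l1 in cKO-labelled libraries, with a median log2 fold change of -0.12. Of 14 negative regulators, Nlrc3 was called higher in Ctrl-labelled libraries and Usp25 and Nlrx1 in cKO-labelled libraries, with a median of -0.16. Of 25 further sensing adaptors and kinases, Traf3, Ticam1, Tlr7, Tlr9 and Irak1 were called higher in Ctrl-labelled libraries and Traf6 in cKO-labelled libraries, with a median of -0.19. These shares were 16.7% and 8.33%, 7.14% and 14.3%, and 20.0% and 4.0% of the 3 lists in the order given, for the direction of Ctrl-labelled and of cKO-labelled libraries, beside 11.8% and 12.6% of all genes.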
